A study of Mus musculus with 313 samples.

Results

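Megf10, Fgf15 and Spon2 were 3 of the 100 genes measured by quantitative RT-PCR in single lymphoid precursor cells of the mouse fetal liver. They were chosen by their readout, that is by the shares of cells of each precursor type in which they were detected and by the genes they were detected with. These shares are therefore given as a description, with no test. Megf10 encodes a transmembrane receptor with EGF-like repeats through which astrocytes and other cells engulf dying cells and synapses, and which also acts in muscle satellite cells. Fgf15 is the mouse counterpart of human FGF19, a secreted growth factor best known as the hormone by which the ileum, on sensing bile acids, lowers bile acid synthesis in the liver. Spon2 encodes mindin, a secreted matrix protein of the F-spondin family that binds integrins and bacterial surface molecules. Megf10 and Fgf15 are not textbook genes of innate lymphoid cells (ILCs), the lymphocytes without rearranged antigen receptors. Spon2 is a known gene of human natural killer (NK) cells.

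All cells came from pooled livers of mouse fetuses at embryonic day 15, with no genetic or drug treatment named, and all were lineage-negative and carried the IL-7 receptor and integrin α4β7. LTi precursors (LTiP), the precursors of the lymphoid tissue inducer cells that start lymph node formation, were PLZF- and CXCR5+. ILC precursors (ILCP) were PLZF+. The α4β7+ lymphoid precursors (aLP), taken to come before both, were PLZF- and CXCR5-. PLZF is the transcription factor encoded by Zbtb16, and CXCR5 is a chemokine receptor. The 312 cells used formed 5 pools by type and by the sort number in their names: 14 LTiP cells of sort 3, 62 and 90 ILCP cells of sorts 2 and 3, and 54 and 92 aLP cells of sorts 2 and 3. The pool, not the cell, was taken as the replicate.

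A gene counted as detected where its Ct, the PCR cycle at which the signal crosses a threshold, lay below 24, and its level was 24 minus the Ct, in cycles. A level higher by 1 cycle stands for about 2 times as much cDNA if the PCR is fully efficient, and levels of different genes were not compared because each assay has its own efficiency. The mean number of assays detected per cell was 33.6 in LTiP. It was 40.7 (sort 2) and 40.8 (sort 3) for ILCP, against 32.2 (sort 2) and 28.2 (sort 3) for aLP. The mean Ct of the housekeeping genes Actb, Gapdh and Hprt was 15.4 in LTiP, 14.0 and 14.4 in ILCP, and 14.6 and 15 in aLP, so ILCP cells held the most detected assays and the lowest housekeeping Ct within each sort. The part of this difference in the shares below was not tested, and share differences in a shared housekeeping Ct range are given at the end. Detection of Zbtb16 stood at 50.0% in LTiP, at 93.5% and 96.7% in the ILCP pools and at 20.4% and 3.3% in the aLP pools, so the transcript was not absent from the cells sorted as PLZF-. Detection of Cxcr5 stood at 85.7% in LTiP, at 38.7% and 45.6% in the ILCP pools and at 25.9% and 7.61% in the aLP pools. The housekeeping gene Tbp was detected in 0% of aLP cells of sort 2, against 51.1% in aLP of sort 3. It stood at 48.4% and 63.3% in the ILCP pools and at 21.4% in LTiP. Whether its assay failed in that aLP pool, and whether other assays were affected there, was not tested.

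Megf10 was the most frequent of the 3 genes in ILCP. Of 14 LTiP cells 1 had it (7.14%, with an exact Clopper-Pearson 95% interval of 0.181 to 33.9). In ILCP it was detected in 18 of 62 cells of sort 2 (29%, 18.2 to 41.9) and in 39 of 90 cells of sort 3 (43.3%, 32.9 to 54.2). In aLP it was detected in 1 of 54 cells of sort 2 (1.85%, 0.0469 to 9.89) and in 3 of 92 cells of sort 3 (3.3%, 0.678 to 9.23). The intervals describe counting error within a pool and were not used to compare pools. LTiP was 1 pool of 14 cells, so its shares have no replicate. The ILCP share was 36.2 ± 10.1% and the aLP share 2.56 ± 0.996% (SD, n = 2 pools each), and the difference was 27.2 percentage points in sort 2 and 40.1 in sort 3. Of the 91 assays tested, 9 had a larger mean difference in share.

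In the cells that expressed it, Megf10 was well clear of the detection limit. The lowest, median and highest levels were 4.71, 5.83 and 8.79 cycles in the 18 ILCP cells of sort 2, and 4.41, 6.31 and 8.70 cycles in the 39 of sort 3. The LTiP cell had a level of 4.68 cycles. The aLP cells had levels of 5.93 cycles in sort 2 and of 5.60, 6.0 and 7.21 cycles in sort 3, inside the range of the ILCP cells. The groups thus differed in how many cells had the transcript, and the few cells outside ILCP had it at levels found in ILCP. The mean over detecting ILCP cells was 6.16 ± 1.40 cycles in sort 2 and 6.31 ± 1.09 cycles in sort 3 (SD over cells, n = 18 and 39). The 62 cells with Megf10 included none close to the limit of 24, as the highest Ct was 19.6, and no cell had a Megf10 Ct of 24 or more.

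Fgf15 was detected in ILCP cells only. It was found in 0 of 14 LTiP cells (exact interval 0 to 23.2). The limit for a count of 0, taken as 3 cells of the pool, was 21.4%, lower than the exact upper end. In ILCP it was found in 5 of 62 cells of sort 2 (8.06%, 2.67 to 17.8) and in 18 of 90 cells of sort 3 (20%, 12.3 to 29.8). In aLP it was found in 0 of 54 cells of sort 2 and in 0 of 92 cells of sort 3, for which the same limit was 5.56% and 3.3%. The ILCP share was 14.0 ± 8.44% (SD, n = 2 pools), and 33 of the 91 assays had a larger mean difference from aLP than Fgf15. Without the ILCP pool of sort 3 the difference was 8.07 percentage points. Fgf15 was 1 of 4 tested assays with no detection in either aLP pool, and the others were Bcl11b and Eomes, which encode transcription factors of T cells and ILC2 and of NK cells, and Il17rb, a subunit of the IL-25 receptor. All 4 were also undetected in LTiP.

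The Fgf15 levels had the widest range of the 3 genes in ILCP of sort 3, but not in sort 2, where Megf10 had a wider one. The 5 ILCP cells of sort 2 had levels of 5.34, 5.47, 5.50, 5.65 and 7.93 cycles. The lowest, median and highest levels of the 18 ILCP cells of sort 3 were 1.5, 5.85 and 10.3 cycles, with a mean of 6.06 ± 2.1 cycles (SD over cells). The 4 highest cells of sort 3, at 8.33, 8.85, 9.15 and 10.3 cycles, lay above every cell of sort 2. At the limit, 1 cell lay just inside with a Ct of 22.5, the next inside had 20.3, and 1 ILCP cell of sort 2 lay just outside with 24.4.

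Spon2 was not restricted to ILCP, and its highest share was in LTiP, which was 1 pool of 14 cells. Of 14 LTiP cells 5 had it (35.7%, 12.8 to 64.9). In ILCP it was detected in 4 of 62 cells of sort 2 (6.45%, 1.79 to 15.7) and in 11 of 90 cells of sort 3 (12.2%, 6.26 to 20.8). In aLP it was detected in 2 of 54 cells of sort 2 (3.7%, 0.452 to 12.7) and in 0 of 92 cells of sort 3, which allows up to 3.3%. Within sort 3 the LTiP share was 23.5 percentage points above ILCP and 35.7 points above aLP. All 14 LTiP cells were numbered 1 to 96, as were 19 ILCP and 24 aLP cells of sort 3. In that range Spon2 was found in 3 of the 19 ILCP cells (15.8%) and in 0 of the 24 aLP cells, so the gap to ILCP was smaller there. In 13 of the 91 assays (14.3%) the LTiP share was at least 20 points above the ILCP share of sort 3, a mark set with these values known, and 11 assays had a larger difference than Spon2. The higher share in LTiP went with the highest housekeeping Ct of the 5 pools.

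The Spon2 difference between ILCP and aLP was the smallest of the 3 genes. It was 2.75 percentage points in sort 2 and 12.2 points in sort 3. The mean over the sorts was 7.49 points, and it was 4.6 points without the ILCP pool of sort 3. Of the ILCP cells of sort 2, 52 were numbered 1 to 96 and 10 were numbered 97 or higher, whereas all aLP cells of sort 2 were numbered 97 or higher. With only those numbers kept in sort 2, Spon2 was found in 0 of 10 ILCP cells and in 3.7% of aLP cells, so the order was turned in that sort, and the mean difference was 4.26 points. Megf10 then stood at 20% in ILCP of sort 2, against 1.85% in aLP, and Fgf15 at 10%, against 0%. Spon2 levels were alike where it was detected. They were 3.06, 5.25, 5.32, 5.74 and 6.55 cycles in LTiP, and 4.23, 5.12, 5.26 and 6.20 cycles in ILCP of sort 2. The 11 ILCP cells of sort 3 had a lowest, median and highest level of 5.13, 5.45 and 7.20 cycles, and the 2 aLP cells had 5.39 and 6.39 cycles. The highest Ct inside the limit was 20.9, in an LTiP cell, and 1 ILCP cell of sort 2 lay just outside at 24.4.

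**Figure D1:**
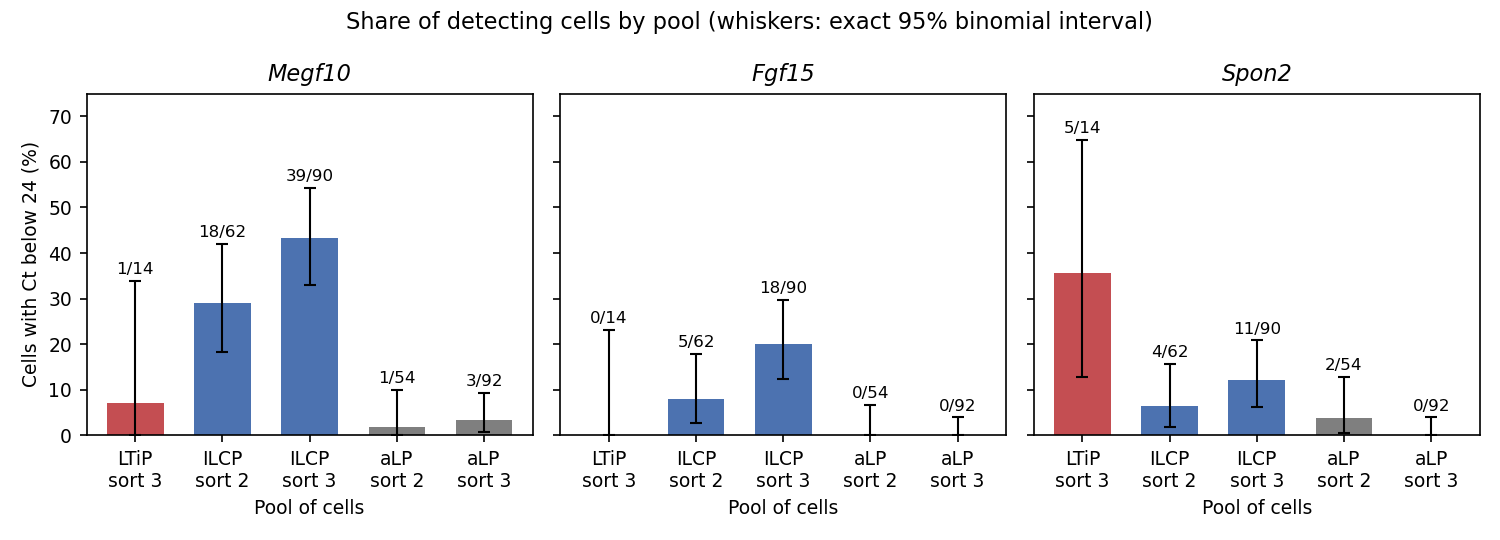
Share of cells (percent) in which each gene was detected, by pool from LTiP through ILCP to aLP, with whiskers for the exact 95% interval, which covers counting error only. Megf10 stood at 29% and 43.3% in the ILCP pools and at 1.85% and 3.3% in the aLP pools, Fgf15 was above 0 in the ILCP pools only, and Spon2 was highest in LTiP at 35.7%.

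**Figure D2:**
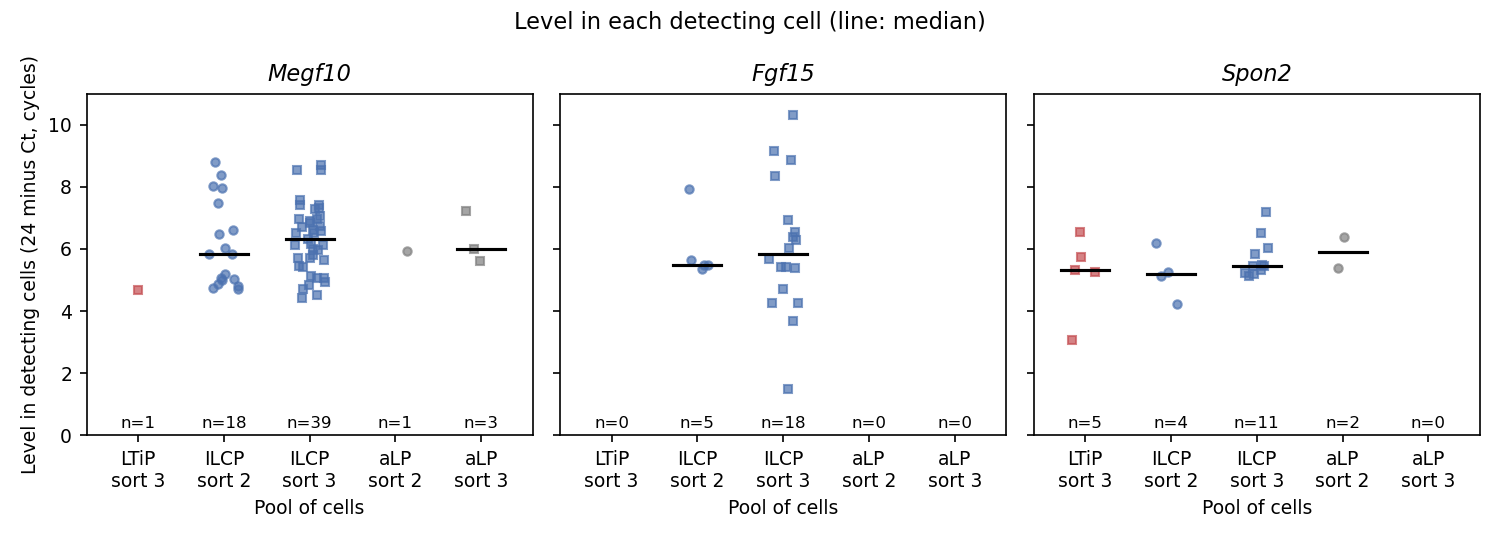
Level (24 minus Ct, in cycles) of each gene in every cell that detected it, 1 point per cell and 1 column per pool, with the number of detecting cells. The 4 Megf10 levels in aLP, from 5.60 to 7.21 cycles, lay inside the ILCP range, and Fgf15 had the widest range, from 1.5 to 10.3 cycles in ILCP of sort 3.

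For all 3 genes the shares of both ILCP pools were above those of both aLP pools, which also held for 47 of the 91 assays (51.6%), so that this order is common on the panel. For Spon2 it was lost when sort 2 was limited to cells numbered 97 or higher. When the mean levels of the 2 ILCP pools were compared with those of the 2 aLP pools with limma, 6 of 91 assays (6.59%) passed an adjusted p of 0.05, of which 5 (5.49%) were higher in ILCP. These were Zbtb16, Rora, Tcf7, Rxrg and Ets1, and Irf8 was lower. The limma count was 0 without the ILCP pool of sort 2 (19 assays at an unadjusted p under 0.05), 0 without that of sort 3 (23 assays), and 20 without the aLP pool of sort 2, and it was 2, Rora and Zbtb16, with the sort as a replicate block. Tcf7, Rxrg, Ets1 and Irf8 did not pass with that block. No p is given for the 3 genes, since they were chosen on this contrast. The mean level over all cells, which mixes share and amount, was higher in ILCP than in aLP by 1.68 and 2.53 cycles for Megf10 in sorts 2 and 3, and by 0.48 and 1.21 cycles for Fgf15. The same fit gave the other genes of the pathways in which the 3 genes are known to act. Of 14 genes of the FGF axis and nuclear receptors 3 were on the panel, and 2 of them rose in ILCP. Rxrg, a retinoid X receptor and hence a partner of nuclear receptors, was higher by 2.21 ± 0.227 cycles (SE, limma adjusted p = 0.0138), and Rora by 4.83 ± 0.313 cycles (limma adjusted p = 0.00615). No FGF receptor was among them.

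Of the Notch pathway genes, listed because MEGF10 interacts with Notch in muscle satellite cells, 7 were tested and 0 passed in limma. The difference of ILCP from aLP was 2.27 ± 0.419 cycles for the Notch target Hes1 and -2.32 ± 0.424 cycles for the corepressor gene Tle1 (SE, limma adjusted p = 0.0685 for both). The median difference over the 7 was 0.261 cycles, against 0.537 over all 91 assays. Of the 10 engulfment receptor genes, the class of Megf10, 0 were on the panel. Of the integrin genes, the class that Spon2 binds, Itga4 and Itga2b were tested, and 0 passed, with differences of 0.212 ± 0.317 and 1.44 ± 0.296 cycles (limma adjusted p = 0.633 and 0.07). Of 6 tested genes of other secreted factors and imprinted genes 0 passed, among them Igf2 at 1.83 ± 0.35 cycles and H19 at 2.57 ± 0.727 cycles (limma adjusted p = 0.0685 and 0.119).

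The lists of lineage genes, chosen with earlier results of these data known, are given as a description and do not assign the differences to a cell type. Over all 91 assays 5 (5.49%) rose. Of 12 ILC precursor transcription factors 4 rose in ILCP and 0 fell, with a median difference of 1.52 cycles, and these 4 include Zbtb16, whose protein defined the sort. Of 11 ILC2 genes 4 rose and 0 fell (median 1.22 cycles), with Rora, Tcf7 and Ets1 called in both lists. The other ILC2 call was Rxrg, which was also listed with the FGF axis and nuclear receptors. Of 7 T lineage genes 1 rose, Tcf7 (median 1.17 cycles). Of 8 LTi genes (median 0.421 cycles) and of 5 ILC1 and NK genes (median 0.751 cycles) 0 passed. Irf8, a regulator of myeloid, dendritic and B cells, was the 1 gene that fell both among 3 B lineage genes (median -0.447 cycles) and among 2 myeloid and dendritic genes (median -2.05 cycles), with a difference of -2.88 ± 0.311 cycles (limma adjusted p = 0.0138). The erythroid, megakaryocyte and mast cell list held Itga2b alone, and of 2 stem and early progenitor genes and 4 housekeeping genes 0 passed. Of the housekeeping genes, Tbp had no detection in the aLP pool of sort 2. Among 4 gate genes Zbtb16 passed. Of the genes called in these lists, only Rora and Zbtb16 also passed with the sort as a replicate block.

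Few ILCP cells held more than 1 of the 3 genes. In sort 2, 36 of 62 ILCP cells had none, 25 had 1 gene, 1 had 2 and 0 had all 3. In sort 3, 40 of 90 had none, 34 had 1, 14 had 2 and 2 had all 3. At least 1 gene was thus found in 5 of 14 LTiP cells (35.7%), all 5 of them with Spon2, in 41.9% of ILCP cells of sort 2 and 55.6% of those of sort 3, and in 3 of 54 and 3 of 92 aLP cells. Megf10 and Fgf15 were found together in 1 ILCP cell of sort 2 and in 11 of sort 3, where the product of their shares would give 1.45 and 7.8 cells. Megf10 and Spon2 were found together in 0 and 6 cells, against products of 1.16 and 4.77, and Fgf15 and Spon2 in 0 and 3 cells, against products of 0.323 and 2.2. For each pair the count was below the product in sort 2 and above it in sort 3. Most products were too small for a gap of a few cells to tell whether the genes share a set of cells. Only 2 ILCP cells, both of sort 3, held all 3 genes. The 76 ILCP cells with at least 1 of the genes all had detectable Zbtb16, as did 69 of the 76 without any of them.

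Cells with Megf10 had a higher mean Zbtb16 level in both sorts. In ILCP of sort 2 the Zbtb16 level was 8.97 ± 0.869 cycles in cells with Megf10 and 6.91 ± 2.74 cycles in cells without it, and in sort 3 it was 8.97 ± 0.739 and 7.25 ± 2.26 cycles (SD over cells, undetected cells at 0). Cells with Fgf15 stood at 8.92 cycles, against 7.38 cycles without it in sort 2, and at 9.03 against 7.74 cycles in sort 3. For Spon2 the sorts differed in direction, with 7.13 cycles in cells with it and 7.53 in cells without it in sort 2, but 9.10 and 7.84 cycles in sort 3. The number of other assays detected was 41.7 with Megf10 and 40.0 without it in sort 2, and 41.8 and 39.3 in sort 3. It was 43.2 with Fgf15 and 40.4 without it in sort 2, and 41.3 and 40.4 in sort 3, and for Spon2 it was 43 and 40.5, and 43 and 40.4. Cells with any of the 3 genes thus also detected about 1 to 3 more of the other assays. The co-detection below is therefore also given with that number held constant for the leading pairs of each gene.

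Co-detection was described by the phi coefficient, the correlation of detected or not detected between 2 genes over cells, computed in the 62 ILCP cells of sort 2 and the 90 of sort 3 separately for the 57 assays found in 10% to 90% of the cells of both sorts. Cells of 1 sort share their pool and its depth, so phi is a description without a p. The assays named are those with the highest and lowest mean phi among those of 1 sign in both sorts. For Megf10, 34 of the 56 other assays had the same sign in both sorts, for Fgf15 37 of 57 and for Spon2 29 of 57, so that many small values changed sign between sorts.

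Megf10 went most with Cd27, a TNF receptor family member that provides costimulation to lymphocytes, with a mean phi of 0.354. Cd27 was detected in 88.9% of ILCP cells with Megf10 and 52.3% of those without it in sort 2, and in 97.4% and 68.6% in sort 3. H19, an imprinted non-coding RNA abundant in fetal tissue, followed with a mean phi of 0.306. It was found in 72.2% of cells with Megf10 and 40.9% of those without it in sort 2, and in 87.2% and 56.9% in sort 3. Il2rb, a subunit of the IL-2 and IL-15 receptors, was found in 66.7% of cells with Megf10 and 38.6% of those without it in sort 2, and in 64.1% and 31.4% in sort 3, and its mean phi of 0.290 was 0.152 with a detection limit of 22. Bcl2, a survival factor, was found in 66.7% and 34.1% in sort 2 and in 76.9% and 51.0% in sort 3. Tnfrsf9, a costimulatory receptor of activated lymphocytes, was found in 72.2% of cells with Megf10 and 43.2% of those without it in sort 2, and in 56.4% and 27.5% in sort 3. Against Megf10 ran Il18r1, the IL-18 receptor, found in 38.9% of cells with Megf10 and 70.5% of those without it in sort 2, and in 17.9% and 41.2% in sort 3. With the number of assays detected per cell held constant, the mean correlation with Megf10 was 0.324 for Cd27, 0.272 for H19 and -0.356 for Il18r1. The order moved with the measure: by Spearman correlation of levels H19 at 0.385 and Bcl2 at 0.287 stood above Cd27 at 0.274. With a detection limit of 22 the mean phi went from 0.278 to 0.188 for Tnfrsf9 and from -0.271 to -0.207 for Il18r1. Rag2, of the antigen receptor recombinase, was found in 0% of the 18 cells with Megf10 and 20.5% of those without it in sort 2, and in 5.13% and 17.6% in sort 3. Megf10 was also more frequent in ILCP cells with Cxcr5, at 37.5% with Cxcr5 and 23.7% without it in sort 2 and at 61% and 28.6% in sort 3.

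Fgf15 went most with Hes1, with phi of 0.337 and 0.332 in the 2 sorts. Hes1 was found in 5 of 5 ILCP cells with Fgf15 and 38.6% of those without it in sort 2, and in 94.4% and 54.2% in sort 3. The mean correlation was 0.330 with the number of assays detected held constant. By Spearman correlation of levels H19, at 0.346, stood just above Hes1, at 0.339. Ets1, a transcription factor of lymphocytes, was found in 23 of 23 ILCP cells with Fgf15 and in 72.1% of those without it, over both sorts. Rxrg was found in 80% of cells with Fgf15 and 35.1% of those without it in sort 2, and in 55.6% and 30.6% in sort 3. The imprinted growth factor gene Igf2 and Bcl11b had a phi of 0.429 and 0.399 in sort 2, where 5 cells had Fgf15, but of 0.124 and 0.0713 in sort 3. Irf8 ran against Fgf15, in 0 of 5 cells with Fgf15 and 43.9% of those without it in sort 2, and in 5.56% and 40.3% in sort 3. Nfil3, a transcription factor that ILCs need, was found in 40% of cells with Fgf15 and 56.1% of those without it in sort 2, and in 16.7% and 51.4% in sort 3.

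Spon2 had the weakest relations, with 4 and 11 ILCP cells. Its highest mean phi was 0.245, with Id2, an inhibitor of E proteins that all ILCs need, found in 4 of 4 cells with Spon2 and 32.8% of those without it in sort 2, and in 54.5% and 32.9% in sort 3. Il2rb, Foxo1, Rora and Tbp followed with mean phi of 0.208, 0.184, 0.174 and 0.172. With the number of assays detected held constant, the mean correlation with Spon2 was 0.235 for Id2 and 0.178 for Il2rb. These values moved with the setting: Il2rb stood at 0.136 and 0.129 with detection limits of 22 and 26, and by Spearman correlation of levels Rora stood at 0.0736 and Tbp at 0.111. Rora was found in 15 of 15 ILCP cells with Spon2 and in 74.5% of those without it. Myc, a driver of cell growth, ran against Spon2, in 25% of cells with Spon2 and 72.4% of those without it in sort 2, and in 45.5% and 65.8% in sort 3.

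**Figure D3:**
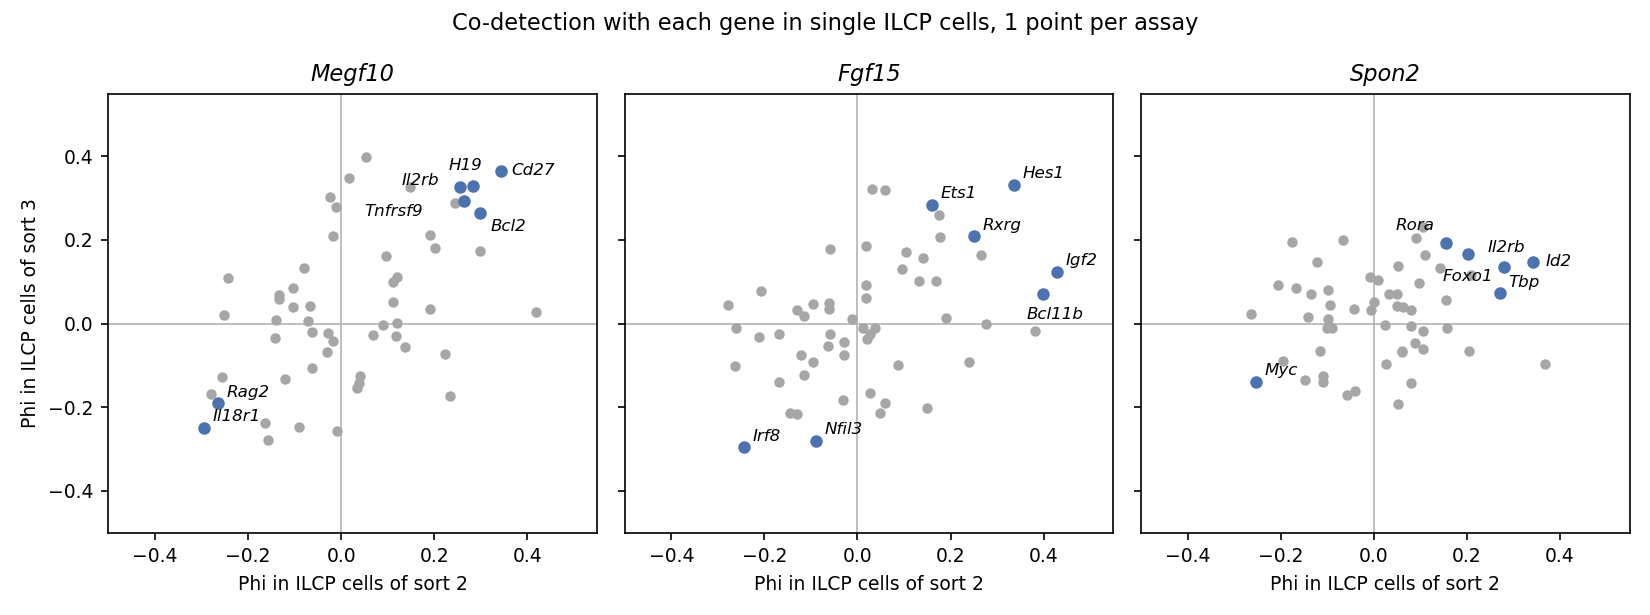
Phi of co-detection between each gene and the other eligible assays in ILCP cells, with sort 2 on the x axis and sort 3 on the y axis, 1 point per assay, and named assays in blue. Cd27 stood at 0.344 and 0.365 with Megf10 and Hes1 at 0.337 and 0.332 with Fgf15, whereas the assays named for Spon2 lay nearer to 0 in sort 3.

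**Figure D4:**
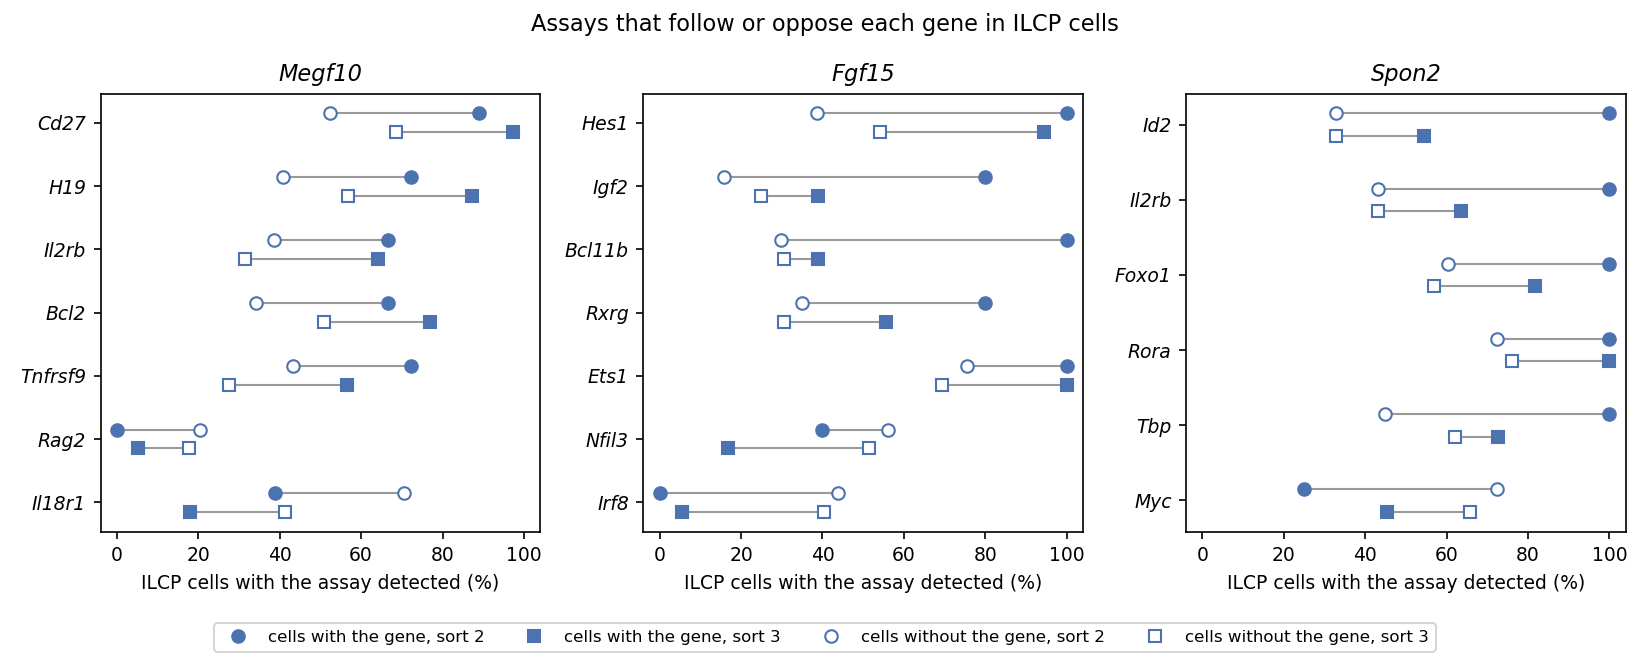
Share of ILCP cells (percent) that detected each named assay among cells with the gene and among cells without it, for sorts 2 and 3. Irf8 was found in 0% and 5.56% of cells with Fgf15 and in 43.9% and 40.3% of cells without it.

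The few cells outside ILCP with 1 of the genes were described by the genes they also held. The 4 aLP cells with Megf10 all detected Tcf7, Tox and Cd27, which were found in 22.6%, 69.9% and 36.3% of all aLP cells. Of these 4 cells 2 detected Zbtb16, 2 Cxcr5 and 1 Rora. The 2 aLP cells with Spon2, both of sort 2, detected Tcf7, Rora, Cxcr5 and the lymphotoxin gene Lta, and 1 of the 2 detected Zbtb16. In all aLP cells of sort 2 these 4 genes stood at 31.5%, 11.1%, 25.9% and 11.1%. The 2 cells detected 45 and 40 assays, against a mean of 32.2 in their pool. The aLP cells with Megf10 detected 37 in sort 2, and 35, 47 and 32 in sort 3, where the mean was 28.2. The part of this depth in the genes they held was not tested. The 1 LTiP cell with Megf10 also had Spon2 and Zbtb16. These counts are too small for more than a description.

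Within LTiP, the 5 cells with Spon2 and the 9 without it both held LTi genes. Cd4, present on LTi cells, was found in 4 of the 5 and in 2 of the 9. Lta was found in 4 of the 5 and in 5 of the 9. Tnfsf11, which encodes RANKL, and Il23r, the IL-23 receptor, were each found in 1 of the 5 and in 3 of the 9. The cells with Spon2 detected 37.4 assays on average and those without it 31.4, at a housekeeping Ct of 16 and 15.1.

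The likeness of the genes across the 5 pools was measured as the mean absolute difference in share. For Megf10 the nearest assays were Itga2b at 4.93 percentage points, Rxrg at 5.57, Bcl11b at 5.96, Igf2 at 6.74 and Gata3 at 6.78. For Fgf15 they were Il17rb at 2.72 points, Tle2 at 2.98, Eomes at 3.1, Il2ra at 3.3 and Lef1 at 3.87. For Spon2 they were Il23r at 5.21 points, Cd4 at 5.76, Tnfsf11 at 6.51, Ltb at 7.25 and Tle2 at 8.99, of which Il23r, Cd4, Tnfsf11 and Ltb were on the LTi list. With 5 pools this is a ranking of shares and no more.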

How the data were processed

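Cells were profiled by the authors on a microfluidic Biomark system after 22 cycles of preamplification, per the labels' protocols. The Ct scores the authors deposited are raw cycle numbers without normalization, per the file headers, and what made a Ct missing was not given in the sources used here. Per the labels, SYBR Green as well as TaqMan or Solaris chemistry was named.

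Groups came from the labels. The number 2 or 3 in each cell name was taken as the sort, which no label defines. Of 313 cells, 312 had at least 1 housekeeping assay and at least 5 assays detected. Assays reaching 5% detection in 1 or more of the 4 ILCP and aLP pools (91 of 100) were compared on pool means with limma 3.58.1 in R 4.3.3 (Benjamini-Hochberg, threshold 0.05), tested on simulated data. With 2 pools per group, its p-values measure a spread between pools that may be technical. Same-sort pools deviated from their group means with a correlation of -0.0468. Intervals are exact Clopper-Pearson at 95%, and the limit for a count of 0 is 3 cells. They describe counting error alone, and bound detection, not expression. Python 3.11.15, pandas 2.3.3, scipy 1.17.1 and matplotlib 3.10.9 were used.

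The 3 genes and the gene lists were chosen with earlier results of these data known. Named were, beside them, the called assays, up to 4 assays of a list, the 5 assays with the highest and the 2 with the lowest mean phi, and the 5 with the nearest shares. Values of 2 assays are not reported here. Alternatives varied the detection limit, scaling, filters, pools, cell numbers and the sort as a block.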

Additional observations from a re-analysis of the deposited data

How the results depend on the processing

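The share differences between ILCP and aLP, as means over the sorts, kept their sign and moved by less than the spread between pools under all 10 alternatives per gene, some of them chosen after seeing the data. They ran from 29.1 to 36.2 percentage points for Megf10, 13.5 to 15 for Fgf15 and 4.26 to 8.61 for Spon2, and without 1 pool from 26.5 to 40.8, 8.07 to 20 and 4.6 to 10.4. In a shared housekeeping Ct range they were 33.97 points for Megf10, 14.63 for Fgf15 and 8.255 for Spon2. Detection limits of 22 or higher could not change the Megf10 shares, as its highest Ct was 19.6. For Fgf15 and Spon2 few Ct values lay near 24, so a change of limit was a weak check for all 3 genes. Within sort 2, the Spon2 difference changed sign with cells numbered 97 or higher only (0% in ILCP, 3.7% in aLP). The phi values of the named assays kept their sign in 84 of 84 alternatives and moved by less than the SD of the 2 sorts in 65. These assays were picked as the extremes of 1 sign in both sorts, and the alternatives used the same cells. The kept sign was therefore largely set by the choice and is no separate support. The count of assays passing limma depended on the setting. It was 6 as reported, with 27 at an unadjusted p under 0.05, 12 with a detection limit of 26, 11 with 28, 16 with no limit, 11 with a 20% filter and 13 on shares. With the sort as a replicate block it was 2 (Rora and Zbtb16). Without 1 pool it ran from 0 to 20: 0 without ILCP of sort 2 (19 at an unadjusted p under 0.05), 0 without ILCP of sort 3 (23), 20 without aLP of sort 2 and 9 without aLP of sort 3, where the lone pool is assumed to vary like the other group. The cause of these changes was not tested. LTiP values rest on 14 cells in 1 pool.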
